A study of Mus musculus with 4 samples.

Results

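Chromosome 12 was examined along its length in 4 chromatin immunoprecipitation libraries, as the ratio of H3K9me3 reads in secondary mouse embryonic fibroblasts (secondary MEF) to those in mouse embryonic fibroblasts (MEF). The members were all 5 kb bins of the chromosome, in mouse build mm8, with a uniquely placed read in any library. This gave 22392 of 494868 bins, or 4.52%. The first began at position 3000001 and the last ended at 120465000. At the edge of this rule, 339 members held a single read, and 1101 bins between the first and the last member held none. The chromosome itself was chosen by its H3K9me3 ratio in these same libraries, so its mean level is given as a description.

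Secondary MEF were grown from chimeric embryos harvested 13.5 days post coitum. The embryos were made by injecting induced pluripotent stem cells into BDF2 blastocysts. Those cells carried doxycycline-inducible Oct4, Klf4 and Sox2 and an Oct4-selectable cassette, and had been derived in Wnt3a-conditioned medium. Fibroblasts descended from them were selected with puromycin at 2 µg/ml over 48 hours, and the growth medium held cosmic calf serum and β-mercaptoethanol. MEF were grown in DMEM with fetal bovine serum, with no strain or transgene given, and were also profiled for H3K4me3 and H3K27me3. Each group was 1 library, so every comparison is between libraries, and its interval covers counting error alone. The H3K9me3 libraries used the same antibody lot, but differed in cell source, culture medium and flow cell, which cannot be told apart.

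H3K9me3 is the mark of heterochromatin and of silenced repeats, and is bound by HP1 proteins. H3K4me3 marks promoters that are active or poised. H3K27me3 is laid down by Polycomb repressive complex 2 over silent developmental genes. The mouse chromosome has its centromere at the low-numbered end, so high positions are distal. Distal chromosome 12 is known for the imprinted Dlk1-Dio3 cluster, in which Meg3 and other non-coding RNAs are transcribed from the maternal copy, and for the immunoglobulin heavy chain genes. In RefSeq's gene order on build GRCm38, Dlk1, a Notch-related ligand, came 1675th of 2192 chromosome 12 genes. Dio3, a thyroid hormone deiodinase, came 1777th and the heavy chain constant gene Ighm 1907th. That order runs in the same direction, but the windows below are on mm8 and were not matched to genes.

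The libraries held 7986294 uniquely placed reads for secondary MEF H3K9me3, 8912579 for MEF H3K9me3, 12244976 for MEF H3K4me3 and 9783343 for MEF H3K27me3. On chromosome 12 they held 500910, 381797, 467045 and 409549 reads in that order, and between 92.1% and 98.1% of these were at distinct positions. A level is given throughout as reads per bin over the mean of the other 18 autosomes in the same library. The chromosome 12 level was 1.35 for H3K9me3 in secondary MEF, and 0.908 for H3K9me3, 0.800 for H3K4me3 and 0.886 for H3K27me3 in MEF. Only the secondary MEF library held more reads per bin here than on the other autosomes.

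Divided by each other, the H3K9me3 levels gave a chromosome 12 ratio of 1.49 (95% interval 1.48 to 1.49). The other autosomes ran from 0.893 on chromosome 4 to 1.08 on chromosome 5, with a median of 0.996. A bin was called enriched with reads of at least 2-fold its library's mean, if the adjusted Poisson value was under 0.001. Secondary MEF H3K9me3 had 4781 called bins on chromosome 12, or 21.4%, beside 9.31% on the other autosomes. MEF H3K9me3 had 1985, or 8.86%, beside 11%. MEF H3K4me3 had 1165, or 5.20%, beside 6.6%, and MEF H3K27me3 had 2199, or 9.82%, beside 12%. In all 3 MEF libraries chromosome 12 thus had a smaller share of called bins than the other autosomes.

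Along the chromosome, 114 windows of 1 Mb held enough bins and reads to be compared (at least 100 bins and 200 H3K9me3 reads). Their ratios ran from 1.198 to 2.20 with a median of 1.496. The windows of the other autosomes reached at most 1.71, and 24 windows of chromosome 12 lay above that. At the low end the ranges overlapped, since 370 of 2255 windows elsewhere, or 16.4%, were at or above the lowest window of chromosome 12. The SD of the log2 ratio over windows was 0.21 on chromosome 12, against 0.17 to 0.24 on the other autosomes. Counting error alone would give an SD of 0.04, so window to window differences on every autosome were mostly wider than counting error.

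**Figure D1:**
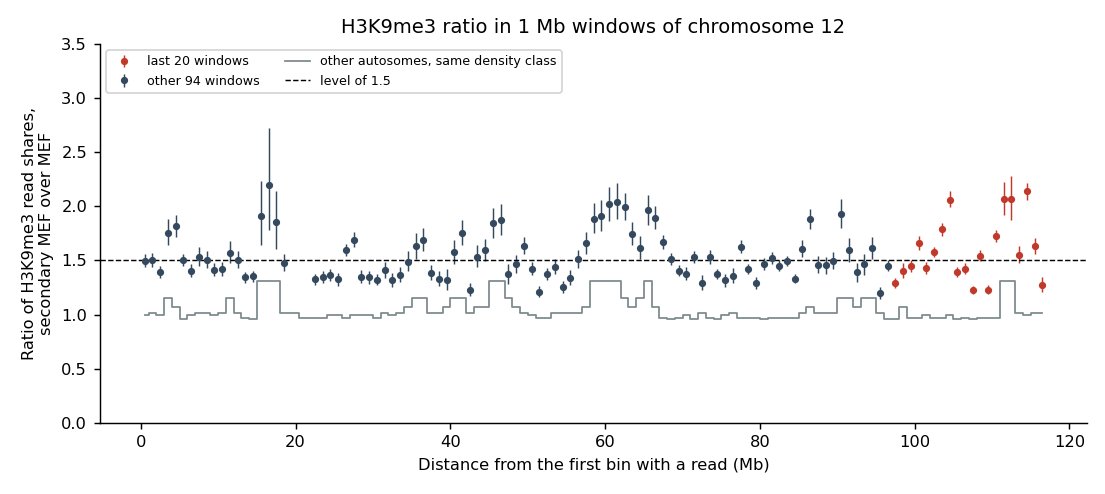
Ratio of H3K9me3 read shares, secondary MEF over MEF, in each 1 Mb window of chromosome 12 (points with 95% counting intervals) against distance from the first bin with a read, in Mb. All 114 windows lie above the grey line, the pooled ratio of other-autosome windows of the same class of read density. Both rise together where reads are sparse.

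A level of 1.5, the ratio that 3 copies against 2 would give if reads followed copy number, was taken as a fixed line. Copy number was not measured. The interval of 38 windows, or 33.3%, lay wholly above that line, that of 46 windows, or 40.4%, wholly below it, and that of 30 windows held it. In windows of 500 kb the balance turned, with 77 of 226 above and 73 below. On the other autosomes, 37.5% of windows lay wholly above 1 and 32.7% wholly below it. The chromosome 12 windows thus left 1.5 about as often as the windows elsewhere left 1, and a single constant did not describe either within counting error.

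Read density was measured from the MEF reads of H3K4me3 and H3K27me3, in bins where neither was called, so that it shared no reads with the ratio. The ratio fell as density rose. Windows were put into 10 classes of density, each holding an equal share of the windows elsewhere. In the lowest density class the ratio was 1.95 (1.91 to 2.00) over 12 windows of chromosome 12, against 1.31 on the other autosomes. It was 1.65 against 1.15 in class 2, 1.61 against 1.07 in class 3 and 1.45 against 1.01 in class 4. From class 5 to class 10 it lay between 1.40 and 1.52 on chromosome 12, against 0.959 to 1.01 elsewhere. Sparse windows thus had the higher ratio on chromosome 12 and elsewhere alike.

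Class by class, chromosome 12 over the other autosomes gave 1.38 to 1.57. Within its own class, 111 of the 114 windows lay above the 95th percentile of the other autosomes, and 73 lay above their highest window. Of the 24 windows above 1.71, 20 were in the 3 sparsest classes and 6 were distal. Across windows, the correlation of log2 ratio with density was -0.66 on chromosome 12 (114 windows) and -0.63 on the other autosomes (2255 windows). These windows share libraries and base composition with their neighbours, so the correlations are descriptions.

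**Figure D2:**
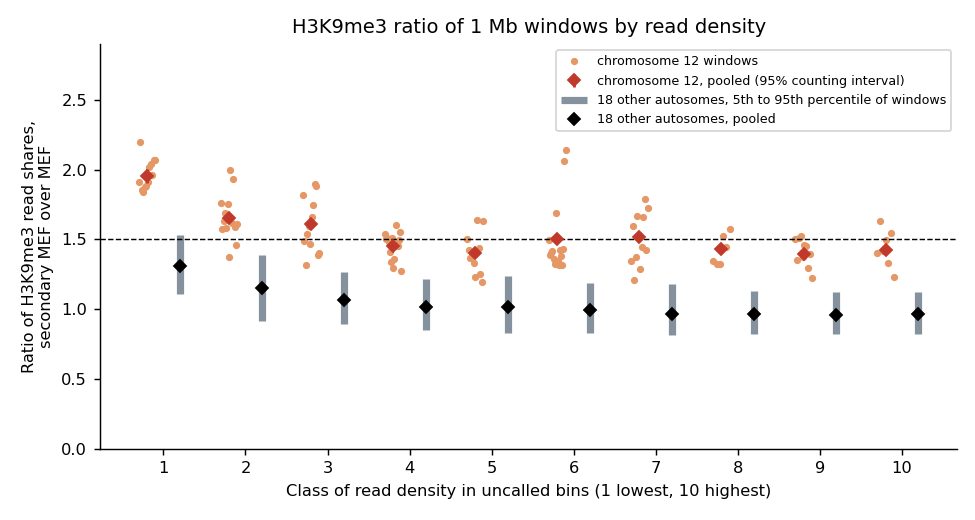
Ratio of H3K9me3 read shares, secondary MEF over MEF, in 1 Mb windows by class of read density (10 classes, sparsest first), with chromosome 12 (points, and red diamonds for the pooled ratio) left of the 18 other autosomes (bars from the 5th to the 95th percentile, black diamonds pooled). The pooled ratio is highest in the sparsest class on both, at 1.95 and 1.31.

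The MEF marks ordered the windows in much the same way, being themselves denser where reads were denser. At H3K27me3 levels under 0.25 the ratio was 1.95 on chromosome 12, against 1.32 elsewhere. At H3K27me3 levels of 2 or more it was 1.31 (1.30 to 1.33) over 5 windows, against 0.943. For H3K4me3, windows under 0.25 had a ratio of 1.72, against 1.21 elsewhere, and windows of 2 or more had 1.55 over 6 windows, against 0.999. Along H3K27me3 the ratio was lowest in the top class, whereas along H3K4me3 the top class lay above the 3 classes before it, on chromosome 12 and elsewhere.

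**Figure D3:**
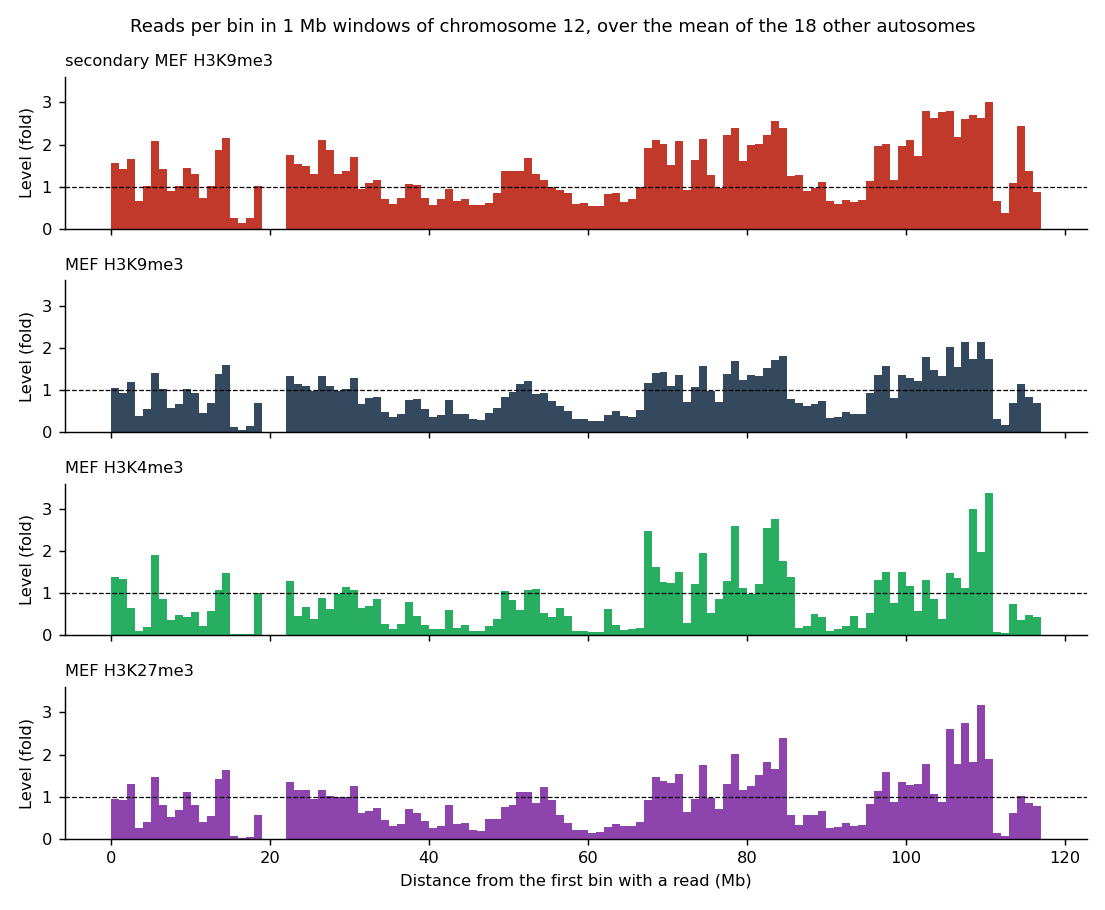
Reads per bin over the mean of the 18 other autosomes in 1 Mb windows of chromosome 12, for each of the 4 libraries, against distance from the first bin with a read, in Mb. The 4 libraries share most peaks and troughs, and the secondary MEF track reaches 3.003 where MEF H3K9me3 stands at 1.74.

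The distal end was defined as the last 20 eligible windows, from 100000001 to 120000000. Its level was 2.00 in secondary MEF H3K9me3, 1.30 in MEF H3K9me3, 1.14 in MEF H3K4me3 and 1.39 in MEF H3K27me3. The other 94 windows stood at 1.22, 0.833, 0.738 and 0.790 in the same order. All 4 libraries were therefore denser at the distal end, MEF H3K27me3 most of all, at 1.76 times the rest, against 1.63 times for secondary MEF H3K9me3.

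The distal H3K9me3 ratio was 1.53 (1.52 to 1.55), from 130648 reads in secondary MEF and 96524 in MEF. Over the rest of the chromosome it was 1.47 (1.46 to 1.48), from 369100 and 284602 reads. Distal over rest came to 1.04 (1.03 to 1.05). The distal interval, which covers counting error alone, lay above 1.5, and that of the rest lay below it. On the other autosomes the same quantity ran from 0.966 on chromosome 7 to 1.10 on chromosome 14, and chromosome 12 ranked 5th of 19.

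The windows from 107000001 to 108000000 and from 117000001 to 118000000 were the highest distal pair after division by their density class, as described below. They were singled out after their values were seen. The lowest distal windows were kept, so leaving out this pair could only lower the distal ratio. Without them the distal ratio was 1.48 (1.46 to 1.49) and distal over rest was 1.005 (0.995 to 1.01). The other autosomes, each without its own highest distal pair by the same measure, ran from 0.947 to 1.09, and chromosome 12 ranked 8th. Counted by window, 9 of the 20 distal windows lay wholly above 1.5, 8 lay wholly below it and 3 held it. In the rest of the chromosome, 29 of 94 lay above, 38 below and 27 held it. The distal end thus held windows well above and well below a constant 1.5, often next to each other.

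Set against windows of the same density on the other autosomes, the distal end stood somewhat higher. Each window ratio was divided by the pooled ratio of its density class, and the mean log2 value was compared between distal windows and the rest. This density-adjusted distal over rest ratio was 1.07 (1.06 to 1.09), the 4th of 19 autosomes, which ran from 0.977 on chromosome 3 to 1.09 on chromosome 18. Without the same pair of windows it was 1.04 (1.03 to 1.05). A linear fit on density and both MEF marks over the other autosomes, applied to chromosome 12, gave 1.09, with other autosomes from 0.971 to 1.14. By these measures several autosomes showed a distal excess as large as that of chromosome 12.

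After division by that of the density class, 8 of 20 distal windows lay wholly above 1.5 and 7 wholly below it. In the rest, 17 of 94 lay above and 44 below. Over the whole chromosome these counts were 25 above and 51 below, or 21.9% and 44.7%, beside 27.9% above 1 and 32.8% below it on the other autosomes.

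**Figure D4:**
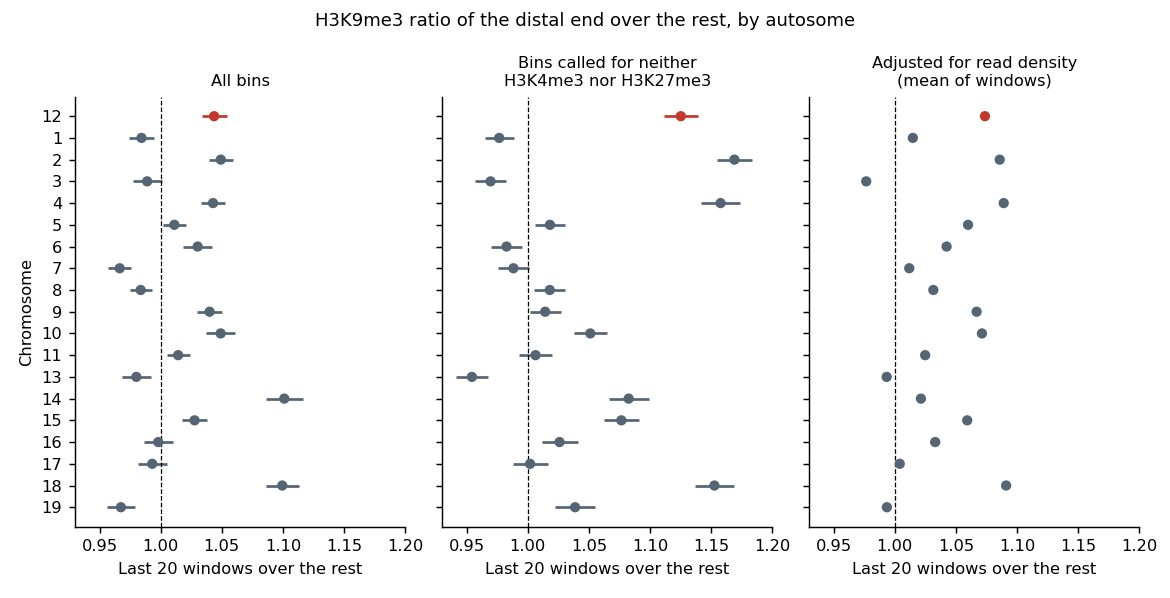
H3K9me3 ratio of the last 20 eligible windows over the rest for chromosome 12 (top, red) and each of the 18 other autosomes, in all bins and in bins called for neither mark (bars are 95% counting intervals), and after adjustment for read density. Chromosome 12 stands at 1.04, 1.13 and 1.07, and other autosomes lie above it in each panel.

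Divided into classes of bins, the distal end differed from the rest mainly where MEF carried neither H3K4me3 nor H3K27me3. In these bins the distal ratio was 1.68 (1.66 to 1.70), against 1.49 (1.484 to 1.5004) in the rest. Secondary MEF H3K9me3 reads called 34.3% of such distal bins, against 10.3% in the rest, and MEF H3K9me3 reads called 7.59% against 2.09%. On the other autosomes these shares were 8.63% distally and 3.14% in the rest for secondary MEF, and 6.71% and 3.10% for MEF, so called shares were higher distally there too. Bins called for H3K4me3 alone had ratios of 1.92 distally and 1.95 in the rest, with overlapping intervals. Bins called for H3K27me3 alone had 1.21 (1.19 to 1.23) distally, against 1.15 (1.13 to 1.16). Bins called for both marks had 1.53 (1.49 to 1.57) distally, against 1.47 (1.44 to 1.51).

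H3K27me3 alone was called in 17.5% of distal bins, against 5.79% in the rest. On the other autosomes it was called in 14.6% distally, against 8.63% in the rest. The class with the lowest ratio was thus the more frequent distally, and the pooled distal ratio of 1.53 stood below that of the bins without either mark. The distal rise in bins called for neither mark, scaled to the same bins elsewhere, was 1.13 (1.11 to 1.14). Other autosomes ran from 0.954 on chromosome 13 to 1.17 on chromosome 2 by this measure, and chromosome 12 ranked 4th of 19.

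On the other autosomes too, bins called for H3K4me3 alone had the highest ratio and bins called for H3K27me3 alone the lowest. Their ratios were 1.03 in bins called for both marks, 1.34 for H3K4me3 alone, 0.791 for H3K27me3 alone and 1.03 for neither. Chromosome 12 as a whole, over the other autosomes, gave 1.45, 1.45, 1.49 and 1.49 in these 4 classes. Finer classes of H3K27me3, from under 0.5-fold to between 5-fold and 10-fold over the library mean, gave 1.46 to 1.49. The 46 bins of 10-fold or more gave 1.38. By window, chromosome 12 over the other autosomes gave 1.39 to 1.54 over classes of H3K27me3 level and 1.43 to 1.55 over classes of H3K4me3 level.

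In 10 Mb segments, the ratio was highest between 60000001 and 70000000, at 1.85 (1.81 to 1.89), from 23270 reads in secondary MEF and 14243 in MEF. This was a sparse stretch, with a level of 0.712 in secondary MEF H3K9me3, 0.385 in MEF H3K9me3, 0.221 in MEF H3K4me3 and 0.274 in MEF H3K27me3. Over windows of the same density elsewhere it came to 1.57. The other 11 segments lay between 1.39 and 1.54. The final segments, from 100000001 and from 110000001, had 1.54 and 1.53, and over the same density 1.58 and 1.54. After this division all 12 segments ran from 1.37 to 1.58, and the segment from 60000001 no longer stood apart from the distal ones.

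The 5 windows of highest ratio fell into sparse windows and windows of middle density. The window from 19000001 to 20000000 was the highest at 2.20 (1.78 to 2.72), from 266 reads in secondary MEF and 137 in MEF. The adjoining windows from 114000001 and 115000001 had 2.07 (1.92 to 2.22) and 2.07 (1.87 to 2.28). These 3 were in the sparsest class, and over that class they had 1.68, 1.58 and 1.58. The window from 19000001 was sparser than any eligible window of the other autosomes, at a density of 0.046 against at least 0.0743. Its value of 1.68 is thus not a comparison at like density. After that division the 3 windows lay nearer to the median of 1.44 over all windows of the chromosome.

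The remaining pair of that list were of middle density. The window from 117000001 to 118000000 had 8071 reads in secondary MEF against 4276 in MEF, which gave a ratio of 2.14 (2.06 to 2.22). Its level was 2.45 in secondary MEF H3K9me3, 1.14 in MEF H3K9me3, 0.370 in MEF H3K4me3 and 1.02 in MEF H3K27me3. Secondary MEF reads called 131 of its 199 bins and MEF H3K9me3 reads called 6. Secondary MEF H3K9me3 reads were thus high over much of the window, while its MEF H3K9me3 level lay near the mean of other autosomes. In this and other windows, bins were called against the library mean, so called bins move with the level of the whole chromosome. No input library was used to separate the mark from background reads.

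The window from 107000001 to 108000000 had 8329 reads in secondary MEF against 4575 in MEF, which gave a ratio of 2.06 (1.99 to 2.14). Its levels were 2.76 and 1.34 for H3K9me3 in secondary MEF and MEF, and 0.389 for H3K4me3 and 0.866 for H3K27me3 in MEF. Of its 182 bins, 153 were called in secondary MEF and 15 in MEF. In both windows MEF H3K4me3 was below the chromosome mean of 0.800.

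Over their density class these windows had 2.15 (2.07 to 2.23) and 2.07 (2.00 to 2.15). Relative to the median of the chromosome they stood at 1.49 and 1.44. On the other autosomes, 3 and 4 of 2255 windows stood as high relative to the median of their own chromosome. The next highest over its class on chromosome 12, from 106000001 to 107000000, had 1.85, and 35 windows elsewhere stood as high relative to their own median.

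The excess was spread through both windows. In 100 kb pieces, the window from 107000001 had ratios from 1.92 to 2.61, and all its secondary MEF levels lay between 2.11 and 3.29. Its MEF H3K9me3 levels lay between 0.809 and 1.51. The highest ratio there belonged to a piece with 5 bins, 175 reads in secondary MEF and 76 in MEF. The window from 117000001 had ratios from 1.72 to 2.70, with levels from 1.63 to 3.22 in secondary MEF and from 0.737 to 1.48 in MEF. Both windows were chosen by their ratio in these same libraries, so levels set apart in their pieces follow from that choice. The pieces are not replicates.

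**Figure D5:**
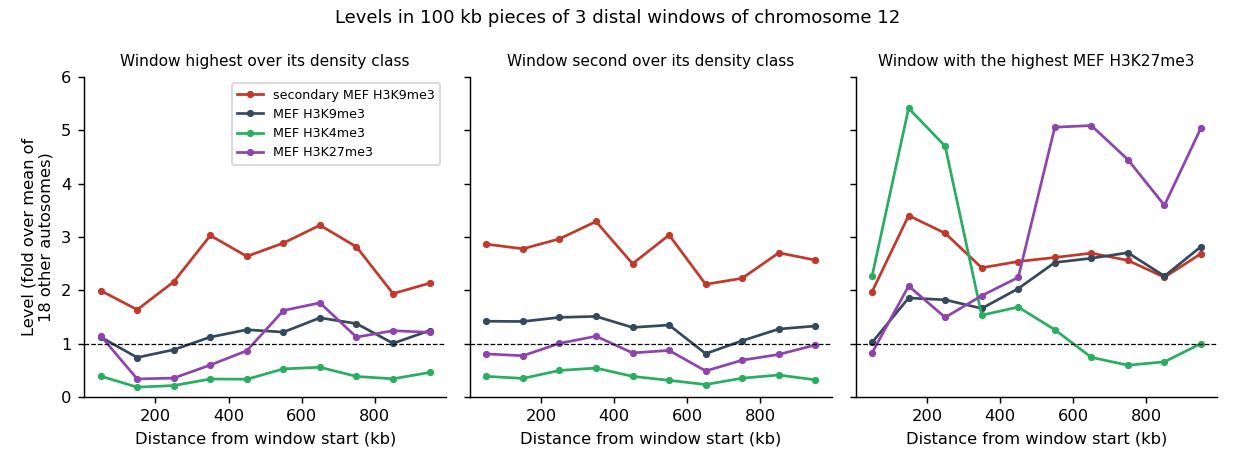
Reads per bin over the mean of the 18 other autosomes in 100 kb pieces of 3 windows of chromosome 12, from 117000001, 107000001 and 112000001, for the 4 libraries against distance from the window start in kb. In the window from 107000001 secondary MEF H3K9me3 lies between 2.11 and 3.29 and MEF H3K9me3 between 0.809 and 1.51, whereas in the last the H3K9me3 tracks meet where MEF H3K27me3 is near 5.

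The 5 windows of lowest ratio included a distal pair. They were the windows from 98000001 at 1.198 (1.14 to 1.25), 54000001 at 1.21, 110000001 at 1.23 (1.19 to 1.26), 112000001 at 1.23 (1.19 to 1.27) and 45000001 at 1.23. The distal pair among them were also the windows of highest MEF H3K27me3. The window from 112000001 had 8690 reads in secondary MEF and 8000 in MEF, levels of 2.62 and 2.13 for H3K9me3, and a MEF H3K27me3 level of 3.18. The window from 110000001 had 8631 and 7972 reads, levels of 2.62 and 2.13, and a MEF H3K27me3 level of 2.74. Their secondary MEF levels lay between those of the windows from 117000001 and 107000001, and their MEF H3K9me3 levels were higher than in both.

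The windows of highest MEF H3K4me3 did not share this. The window from 113000001 led them with a level of 3.38, and its H3K9me3 levels were 3.003 in secondary MEF against 1.74 in MEF, giving a ratio of 1.73 (1.67 to 1.78). The window from 111000001 followed with an H3K4me3 level of 3.01 and a ratio of 1.54 (1.496 to 1.59). The remaining windows of that list, from 86000001, 81000001 and 85000001, had ratios of 1.49, 1.42 and 1.45. The distal end from 110000001 to 114000000 thus alternated between 1.23, 1.54, 1.23 and 1.73 as MEF H3K27me3 and then H3K4me3 was high.

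Within the window from 112000001, the longest H3K27me3 domain of the chromosome in MEF covered 470 kb, from 112525001 to 112995000. Its H3K9me3 level was 2.60 in secondary MEF and 2.64 in MEF, with 4.87 for H3K27me3 and 0.883 for H3K4me3. The ratio was 0.985 (0.944 to 1.03), or 0.662 of the ratio of the chromosome. Of 844 H3K27me3 domains of at least 50 kb on the other autosomes, 99, or 11.7%, were as low relative to their own chromosome. The 28 such domains of chromosome 12 had a median ratio 1.48 times that of the domains elsewhere. The proximal part of the same window, with H3K4me3 levels of 5.42 and 4.70 in the 100 kb pieces from 112100001 and 112200001, had ratios of 1.83 and 1.69.

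Adjacent called bins were joined into regions to compare their lengths. Secondary MEF H3K9me3 formed 1782 regions on chromosome 12, of which 82 were at least 50 kb long and 47 of these were distal. MEF H3K9me3 formed 1030 regions, with 15 of that length and 13 of these distal. The longest in secondary MEF covered 250 kb from 105720001 to 105970000, at levels of 3.45 in secondary MEF against 1.97 in MEF, giving a ratio of 1.76 (1.66 to 1.86). The longest in MEF covered 180 kb from 112620001 to 112800000, inside the H3K27me3 domain, at 2.65 in secondary MEF and 2.69 in MEF. Long H3K9me3 regions in secondary MEF and in MEF were thus both mostly distal. The distal windows held 3944 of the 22392 bins of the chromosome. Of regions of any length, 425 of 1782 in secondary MEF and 351 of 1030 in MEF were distal. Region lengths on the other autosomes are not given here, but called bins were more frequent distally there too. Their shares were 16.5% distally against 7.97% in the rest for secondary MEF, and 18.0% against 9.70% for MEF. Lengths depend on how many neighbouring bins pass the threshold, so they move with the level of the whole chromosome.

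Of the 5 kb bins, 16064 had at least 20 H3K9me3 reads in both libraries together. A 2-fold difference was counted when its interval, allowing 0.1% error, did not hold 1. By this rule 1049 bins, or 6.53%, were higher in secondary MEF, beside 0.541% on the other autosomes, and 1 bin was lower, beside 0.498%. Distally 431 of 3250 bins, or 13.3%, were higher, against 617 of 12782 in the rest, or 4.83%. Distal bins also held more reads, with the levels given above, and the part of depth in this count was not tested. The most were in the windows from 117000001, with 68 of 190 bins compared, and from 107000001, with 62 of 179. Both were named above for their high ratio in the same reads, so this is not a separate result.

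Scaled to the level of chromosome 12 itself, 97 bins were higher and 87 lower, or 0.604% and 0.542%, close to the share on the other autosomes. Of the higher bins 49 were distal, or 1.51% of the distal bins compared, and 48 were in the rest, or 0.376%. Of the lower ones 18 were distal, or 0.554%, and 69 were in the rest, or 0.540%. The shares of lower bins were thus alike, and distal bins held more reads. Bins called for H3K4me3 alone made up 24 of the 97 higher bins and none of the lower, and were 4.38% of the bins compared. Bins called for H3K27me3 alone made up 3 of the higher and 41 of the 87 lower bins, and were 10.8% of the bins compared. Bins above the chromosome's own level thus lay more often at MEF H3K4me3, and bins below it more often at MEF H3K27me3, by count. The window from 107000001 held 9 of the higher bins, and the window from 112000001 held 11 of the lower.

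Single bins rested on few reads. The bin of highest ratio, from 42660001 to 42665000, had 22 reads in secondary MEF and 1 in MEF. The bin from 67950001 had 20 and 1, and that from 28320001 had 19 and 1. The lowest, from 118645001 to 118650000, had 3 reads in secondary MEF and 17 in MEF, and that from 40365001 had 5 and 23. All 10 bins named by rank, high and low, were called for neither H3K4me3 nor H3K27me3, as were 81.9% of the 16064 bins compared.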

How the data were processed

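Values are other than a measured level: the deposited files list signed genome positions of aligned reads, a minus sign marking the minus strand, and are not normalised. The authors used Bowtie on mm8 with -e 70, -k 2, -m 2, -n 2 and -l 36, per the file headers; the version is not given in the sources used here. Input libraries and an mm8 gene annotation were not used here.

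Reads with 1 location were shifted 75 bp from the 5' end, taking a read length of 36, and counted in 5 kb bins. The scale was each library's reads on the 18 autosomes other than 12, so a ratio of 1 is their level. Windows of 1 Mb were compared with at least 100 bins and 200 H3K9me3 reads. Called bins had at least 2-fold the library mean and a one-sided Poisson p-value under 0.001 after Benjamini-Hochberg adjustment. The 10 density classes were cut over windows of those 18 autosomes. Intervals are exact Clopper-Pearson at 95%, or exact conditional for a ratio of ratios; the interval of the density-adjusted value is computed from read counts. PCR reads are not independent molecules, so intervals cover counting error only, and with 1 library a group no condition was tested. Depth gave a mean of 22.4 reads per chromosome 12 bin in secondary MEF H3K9me3 and 17.1 to 20.9 in the MEF libraries.

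Named windows were the 5 highest and 5 lowest by ratio and the 5 highest by MEF H3K4me3 and by MEF H3K27me3; named bins were the 5 highest and 5 lowest among those differing from the chromosome's own level. Windows, segments, domains and regions named otherwise were chosen after their values were seen. The members and lists were chosen with earlier results of these data known. Rules were tested on simulated data. Alternatives covered the scale, the bins used, one read per position, two-location reads, window length, distal length, density measure, linear adjustment, minimum reads and bin width. Python 3.11.15, numpy 2.4.6, pandas 2.3.3, scipy 1.17.1 and matplotlib 3.10.9 were used.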

Additional observations from a re-analysis of the deposited data

How the results depend on the processing

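Of 55 alternative values, 35 stayed close to the value reported and 20 moved beyond its counting interval or by over 1.5 times. Window counts were compared as raw counts, so those in windows of 500 kb and 2 Mb could move by the number of windows alone. As shares, 34.1% and 28.1% of these lay above 1.5, against 33.3% in windows of 1 Mb. Those below it made up 32.3% and 43.9%, against 40.4%. With all reads as the scale, the chromosome 12 ratio was 1.46 and the distal ratio 1.51 (1.498 to 1.52), whose interval held 1.5. In bins called for neither mark, and scaled to the same bins of the other autosomes, the distal ratio was 1.63, distal over rest 1.13 and its density-adjusted value 1.11. With the last 10 Mb as the distal end, distal over rest was 1.03 and the adjusted value 1.06; with the last 30 Mb the distal ratio was 1.52, distal over rest 1.03 and the adjusted value 1.03. The linear adjustment gave 1.09. Windows of 500 kb gave 77 above and 73 below 1.5 of 226, and windows of 2 Mb gave 16 above and 25 below of 57, so the balance turned with the shorter windows. Scaling to chromosome 12 itself gave 97 higher bins in place of 1049.

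Chosen after seeing the data were the division of windows by their density class, which left 25 above 1.5, and leaving out the pair of distal windows highest after that division, which gave a distal ratio of 1.48 (1.46 to 1.49), now below 1.5, distal over rest of 1.005 and an adjusted value of 1.04. Leaving out that pair could only lower the distal values. No paired analysis was possible because each group was 1 library, and no replicate could be left out. Depth limits sparse windows: the eligible one from 19000001 had 266 H3K9me3 reads in secondary MEF and 137 in MEF.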

Other observations

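Windows with too few bins or reads were left out of the window counts, the segments and the distal and rest values above. Their bins and reads stayed in the totals of the whole chromosome. Those from 22000001, 23000001 and 24000001 held 86, 48 and 108 H3K9me3 reads in secondary MEF, against 40, 19 and 51 in MEF, with ratios of 2.44 (1.66 to 3.64), 2.86 (1.65 to 5.16) and 2.40 (1.70 to 3.42). The last window, from 120000001, held 920 reads in secondary MEF against 561 in MEF, which gave a ratio of 1.86 (1.67 to 2.07). All 4 were sparse, and all had ratios above the median of the eligible windows.

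Reads with 2 locations, which come from repeated sequence and are listed at both, gave a chromosome 12 ratio of 1.46 (1.43 to 1.48), with the other autosomes between 0.917 and 1.08. The interval treats each location as a separate read, so it is too narrow where both locations of a read lie on chromosome 12. Distally the ratio of these reads was 1.64, against 1.36 in the rest of the chromosome. Intervals and the distal values of other autosomes are not given here. Whether this difference is particular to chromosome 12 was not tested.

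Other MEF libraries gave another distal picture. Secondary MEF H3K9me3 over MEF H3K27me3 was 1.44 distally and 1.55 in the rest, or 0.928 as distal over rest, although in bins called for neither mark it was 1.71 distally and 1.42 in the rest, or 1.21. Over MEF H3K4me3 it was 1.76 distally and 1.66 in the rest, or 1.06, and 1.26 as distal over rest in bins called for neither mark. Within MEF, H3K9me3 over H3K27me3 was 0.939 distally and 1.06 in the rest, so the distal end differed from the rest between MEF marks as well. In bins called for neither mark, every one of these ratios was higher distally. Those bins were kept for their low MEF H3K4me3 and H3K27me3 counts, which these ratios divide by. The choice of bins and the ratios thus share reads, so this direction is a description only. The same ratios are not given here for other autosomes.

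The longest MEF H3K4me3 region of chromosome 12 covered 80 kb from 81110001 to 81190000. It had an H3K4me3 level of 9.10 and H3K9me3 levels of 4.96 in secondary MEF against 2.20 in MEF, giving a ratio of 2.25 (2.05 to 2.48), inside a window whose ratio was 1.42.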
